A study of Homo sapiens with 24 samples.

Results

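The C/EBP genes (CCAAT/enhancer-binding proteins) examined here are CEBPA, CEBPB, CEBPD, CEBPE, CEBPG and CEBPZ, 6 of the 58138 gene names in each count table. They were taken by name, and CEBPE, which leads them, was chosen by its counts in these same libraries: none in 1 line, and expression in that line's parent. The pattern of CEBPE between the lines is therefore a description and carries no test. All 6 genes were followed in 24 libraries of human kidney-derived cell lines, in 12 groups of 2.

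C/EBP proteins are transcription factors whose basic region binds DNA and whose leucine zipper joins them into dimers with one another or with related zipper proteins. C/EBP-alpha and C/EBP-beta are known for fat, liver and myeloid cell programmes, and C/EBP-epsilon for the last steps of granulocyte maturation, where it drives the genes of secondary granules. CEBPZ shares the family's name but not its zipper: it encodes a CCAAT-binding factor that is also found in the nucleolus.

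The study asked how RPRD proteins, which bind the tail of RNA polymerase II, affect RNA at steady state. HEK293T cells, a human embryonic kidney line carrying the SV40 large T antigen, were transfected with siRNAs for 48 h. The control siRNA group is CTRL, and the silenced groups are RPRD1A_KD, RPRD1B_KD, RPRD2_KD, RPRD1A_RPRD1A_KD (kept as labelled, with the same name in both places), RPRD1A_RPRD2_KD, RPRD1B_RPRD2_KD and RPRD1A_RPRD1B_RPRD2_KD. Flp-In T-REx 293 cells, a kidney-line derivative with a recombination site for an inserted gene and a tetracycline repressor, gave the parent (FLP) and a line labelled RPRD1B_FL, each untreated or given tetracycline for 48 h (FLP_TET, RPRD1B_FL_TET). What FL stands for, and whether the RPRD1B_FL line is 1 clone, are not given in the sources used here. No label says that the samples of a group came from separate cultures, so the p-values measure the spread between these samples, which may be technical.

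Total counts in genes were 1817246 to 3135625 in the 16 HEK293T libraries and 2342969 to 3531106 in the 8 Flp-In libraries. Detection was taken to end at 3 counts, which is 0.863 to 1.67 CPM (counts scaled to library size by edgeR's TMM method), and this floor covers counting error only. RPRD1A stood at 153 and 162 CPM in CTRL and at 14.3 to 26.9 CPM in the 4 groups naming it. It was below CTRL in the other silenced groups too, which do not name it. There it read 83.8 and 100.3 CPM in RPRD1B_KD, 72.7 and 97.2 CPM in RPRD2_KD, and 68.0 and 83.0 CPM in RPRD1B_RPRD2_KD. The cause was not tested. RPRD2 stood at 96.5 and 99.7 CPM in CTRL and at 30.3 to 68.2 CPM in the groups naming it. RPRD1B stood at 27.9 and 27.6 CPM in CTRL, at 3.88 to 14.4 CPM in the groups naming it, and at 13.8 and 7.90 CPM in RPRD1A_RPRD1A_KD. In the RPRD1B_FL line it averaged 45.2 ± 0.33 CPM (SD, n = 2) without tetracycline and read 89.5 and 67.5 CPM with it. The libraries differed in how their counts followed transcript GC content. Spearman's rho between a library's log2 deviation from its line's mean and the GC content of genes was -0.23 to 0.12 in HEK293T libraries, apart from 0.45 in the second RPRD1A_RPRD2_KD library, and -0.54 to 0.60 in Flp-In libraries.

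CEBPE (ENSG00000092067.5) is a gene of 2 exons on the minus strand, at chr14:23117304-23119616 in GRCh38 (GENCODE 29). Its start and that of CEBPA are shown because, among the 5 members with a start in the RefSeq table, these hold the fewest and the most CpG, and the genes differ in where they were detected. Each window is 300 bases, 250 before and 50 after the RefSeq start (GRCh38.p14), read on the gene's strand, with CG dinucleotides in capitals. The CEBPE window is chr14:23119206-23119505, which lies inside exon 1 of the longer GENCODE model (23118582 to 23119616), and the CEBPA window is chr19:33302485-33302784, also on the minus strand.
CEBPE: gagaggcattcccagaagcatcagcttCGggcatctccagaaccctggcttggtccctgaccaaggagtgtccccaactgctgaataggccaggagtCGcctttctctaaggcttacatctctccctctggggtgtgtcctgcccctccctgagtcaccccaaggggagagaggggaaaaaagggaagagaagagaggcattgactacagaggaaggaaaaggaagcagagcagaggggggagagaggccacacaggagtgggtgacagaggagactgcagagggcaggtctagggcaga
CEBPA: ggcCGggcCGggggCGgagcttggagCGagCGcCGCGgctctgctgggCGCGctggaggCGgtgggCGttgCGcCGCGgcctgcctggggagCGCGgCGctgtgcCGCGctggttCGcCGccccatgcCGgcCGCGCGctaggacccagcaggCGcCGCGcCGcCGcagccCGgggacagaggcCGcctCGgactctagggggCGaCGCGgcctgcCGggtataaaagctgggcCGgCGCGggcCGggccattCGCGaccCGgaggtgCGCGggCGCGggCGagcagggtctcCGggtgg
The CEBPE window holds 2 CG dinucleotides, and 18.2% of the 35116 RefSeq windows hold as few, against a median of 14. The CEBPA window holds 50, and 99.0% of windows hold that many or fewer. The windows of CEBPB, CEBPG and CEBPZ also lie above that median, with 31 and 43 for CEBPB, 43 and 45 for CEBPG and 26 for CEBPZ. CEBPD has no entry in the table of starts. The letters CCAAT, searched on both strands, stand in both CEBPB windows and 1 CEBPG window, and in 34.6% of all windows. TTGCNNAA, a form of the C/EBP consensus, stands in none of these 7 windows and in 10.5% of all, and TATAAA stands in the CEBPA window, 1 CEBPB window and 11.5% of all.

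CEBPE RNA was detected in the parent Flp-In line and in none of the other libraries. FLP held 312 and 349 counts (119 and 100.4 CPM; mean 109.7 ± 13.2, SD, n = 2). FLP_TET held 278 and 308 counts (85.9 and 102 CPM; mean 94.0 ± 11.5, SD, n = 2). The 2 parent groups overlap, so their order is within their spread, and all 4 parent libraries lie far above the floor.

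The 4 libraries of the RPRD1B_FL line held 0 CEBPE counts among 10815284 reads, with or without tetracycline. The 16 HEK293T libraries held 0 among 37778051 reads. CEBPE was thus at 0 in 20 of 24 libraries, filling 10 of 12 groups. Set against the floor of 3 counts per library, CEBPE was at least 97.8-fold lower in RPRD1B_FL than in FLP, and at least 75.6-fold lower in RPRD1B_FL_TET than in FLP_TET. HEK293T libraries were at least 79.3-fold below the parent by the same measure. In bulk RNA, fewer cells that express a gene and less of its RNA per cell cannot be told apart.

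**Figure D1:**
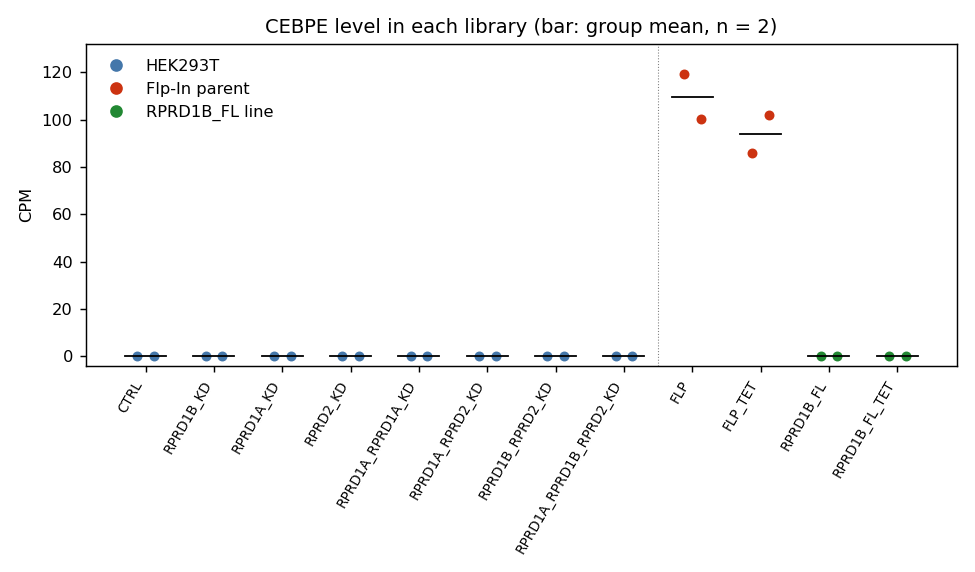
CEBPE level in CPM in each of the 24 libraries, by group, with points for libraries (blue HEK293T, red Flp-In parent, green RPRD1B_FL line) and horizontal lines for group means of 2. The 4 parent libraries lie at 85.9 to 119 CPM, and the other 20 libraries lie at 0.

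Few genes shared this pattern. Of the 8871 genes with a mean of 10 CPM or more in the parent libraries, CEBPE was the only one with 3 or fewer counts summed over the 4 RPRD1B_FL and RPRD1B_FL_TET libraries. Just outside that limit, with up to 12 counts, stood COL2A1, GSTP1 and LCP1, chosen after their values were seen. In the other direction, 0 of the 8763 genes at 10 CPM or more in the RPRD1B_FL line had 3 or fewer counts in the parent. Against HEK293T, 11 of the 8871 genes were at 0 in all 16 libraries: CEBPE, FAM111B, FOXA2, FRMPD4, KLHDC9, LINC00667, SLFN11, TOX3, ZNF558, ZNF677 and ZNF793-AS1. CEBPE is the one name on both lists.

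The genes whose level followed CEBPE most closely over the 24 samples, by Pearson's r of log2(CPM + 1) among 10648 genes, were LINC02226 (r = 0.983), LCP1 (0.976), ATP5O (0.946), MCM3AP (0.927) and IFNGR2 (0.907). The points share only 3 lines, so these values mostly set the parent against the rest. LINC02226, a long noncoding RNA gene on chromosome 5, had 12 to 30 counts in the parent and 0 in every other library. LCP1, an actin-bundling protein typical of blood cells, averaged 48.3 ± 8.88 CPM (SD, n = 4) in the parent, with 0 to 4 counts in RPRD1B_FL libraries and 0 to 3 in HEK293T. The other 3 were graded and never absent. Of these, MCM3AP and IFNGR2 both lie on chromosome 21, and ATP5O was given no position here. MCM3AP, for instance, averaged 453 CPM in the parent, 273 in the RPRD1B_FL line and 273 in HEK293T. ATP5O, a subunit of the mitochondrial ATP synthase, averaged 1354 CPM, 822 CPM and 738 CPM in the same order. By Spearman's rho the first 5 were LINC02226, PTGR1, CDH7, FOXA2 and CGREF1, which leaves 1 name in common.

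Genes next to CEBPE on chromosome 14 were taken from those tested in the Flp-In fit. They had passed its count filter, so their detection was largely set by that choice. The 5 nearest tested genes on each side were C14orf119, ACIN1, CDH24, PSMB5 and AJUBA, and SLC7A8, HOMEZ, PPP1R3E, PABPN1 and SLC22A17, with starts from 137 kb on one side to 233 kb on the other. ACIN1, a splicing-linked nuclear protein gene, averaged 144 CPM in the parent and 144 CPM in the RPRD1B_FL line. PSMB5, a proteasome subunit gene, averaged 507 CPM and 428 CPM. Log2 fold changes of the 10 neighbours in RPRD1B_FL against FLP ran from -0.89 to 0.10, with a median of -0.21 beside -0.15 for all 396 tested genes of chromosome 14 and 0.01 for all genes tested. With tetracycline they ran from -1.30 to 0.68, with a median of -0.19 beside -0.11 for the chromosome. Genes with few reads gave the ends at -0.89 and 0.68 (CDH24, 2.66 CPM in the parent) and at -1.30 (SLC22A17, 3.99 CPM). By edgeR's quasi-likelihood test no neighbour was called (lowest adjusted p = 0.196 and 0.226). Over all of chromosome 14, 5 of 396 tested genes (1.26%) were called without tetracycline and 4 (1.01%) with it.

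**Figure D2:**
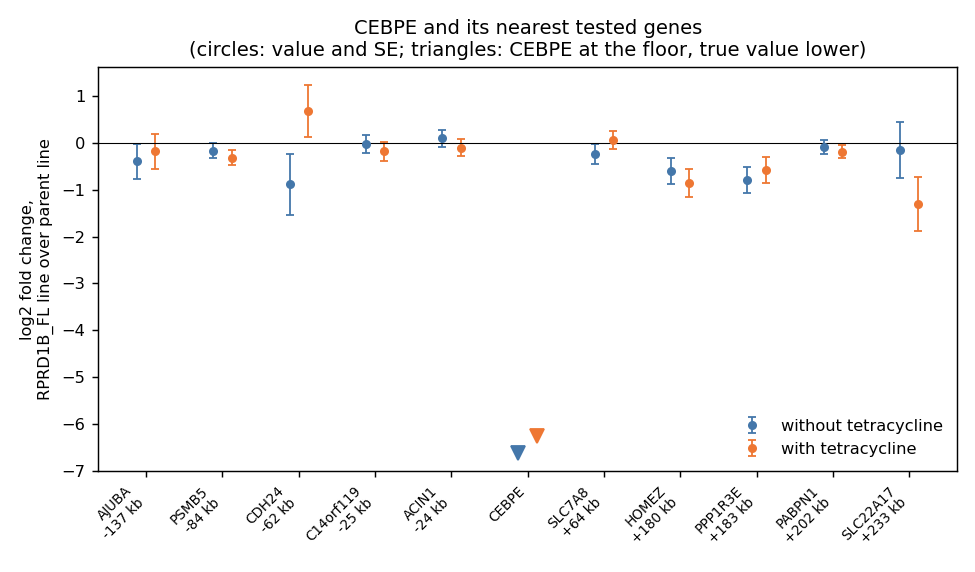
Log2 fold change of the RPRD1B_FL line over the parent for CEBPE's 10 nearest tested neighbours, in order along the chromosome with the distance of their starts in kb, without (blue) and with (orange) tetracycline, as circles with bars of 1 SE. The neighbours lie between -1.30 and 0.68, and the triangles mark the upper bounds of -6.61 and -6.24 that the floor of 3 counts sets for CEBPE.

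Among genes tied to CEBPE's role in blood cells, most of a granule list had no counts in any line, while several blood cell markers were detected. The granule list held 30 known targets or companions of C/EBP-epsilon in granulocytes. Of these, 25 had no counts in the parent, 24 none in the RPRD1B_FL line and 25 none in HEK293T. MMP9, a secreted protease, was the one above 1 CPM, at 5.44 CPM in the parent, 4.14 in the RPRD1B_FL line and 2.46 in HEK293T. Of 28 blood cell markers, 11 had no counts in the parent. Their summed level was 122 to 148 CPM per parent library, 81.2 to 93.4 CPM in the RPRD1B_FL line and 59.7 to 74.8 CPM in HEK293T. LCP1 alone averaged 48.3 CPM in the parent, 0.45 in the RPRD1B_FL line and 0.59 in HEK293T. The higher sum in the parent is therefore not read as a trait of the list. In the parent 9 of the 28 were at 1 CPM or more, among them LCP1, GFI1 (28.96 CPM), RUNX1 (17.6), VAV1 (11.5) and GATA2 (11.3). In the RPRD1B_FL line 8 were, with GFI1 at 27.3 CPM and RUNX1 at 14.1 CPM. Of the 7 markers taken to define blood cells, SPI1, TYROBP and CORO1A had 0 counts in all 24 libraries, and in the parent CD33 had 0, PTPRC 1, ITGAM 1 and LAPTM5 4. Of the 9 tested genes of this list, LCP1 alone was called between the lines by edgeR. It was lower both without and with tetracycline, where 1.18% and 1.11% of all genes were called. LCP1 held 587 counts in the parent libraries and 4, at the floor, in those of the RPRD1B_FL line. Its pattern had been seen beforehand and it passed the count filter through its parent counts. The call is therefore a description, and its fitted values are no measure of size.
Of 15 genes usual in the kidney-derived lines, on the other hand, 14 averaged 1 CPM or more in each Flp-In line. XAGE1A had no counts in any line. VIM averaged 387 CPM in the parent and 355 in the RPRD1B_FL line, KRT18 120 and 119 CPM, and NEFL, a neurofilament gene, 143 and 86.6 CPM. KRT8 averaged 49.5 and 44.8 CPM and INA 19.7 and 17.2 CPM. NEFM was near the floor, at 2.33 and 1.47 CPM, and was not tested in the Flp-In fit. NEFL, the 1 call among 13 tested genes of that list, was lower in both comparisons of the lines. There 1.18% and 1.11% of all genes were called.

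The other members were detected in every library and did not follow CEBPE. In each comparison of the lines 1 of the 6 members was called by edgeR, and it was CEBPE, which the choice of the family fixed. Of 11948 genes tested, 1.18% were called without tetracycline (0.226% higher, 0.954% lower) and 1.11% with it (0.226% higher, 0.887% lower). Nothing is read from the members' count here. Log2 fold changes of CEBPA, CEBPB, CEBPD, CEBPG and CEBPZ ran from -0.36 to 0.26 without tetracycline (lowest adjusted p = 0.52) and from -0.55 to 0.44 with it (lowest adjusted p = 0.586). Without FLP replicate 2 the first count was 2, CEBPE and CEBPZ.

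**Figure D3:**
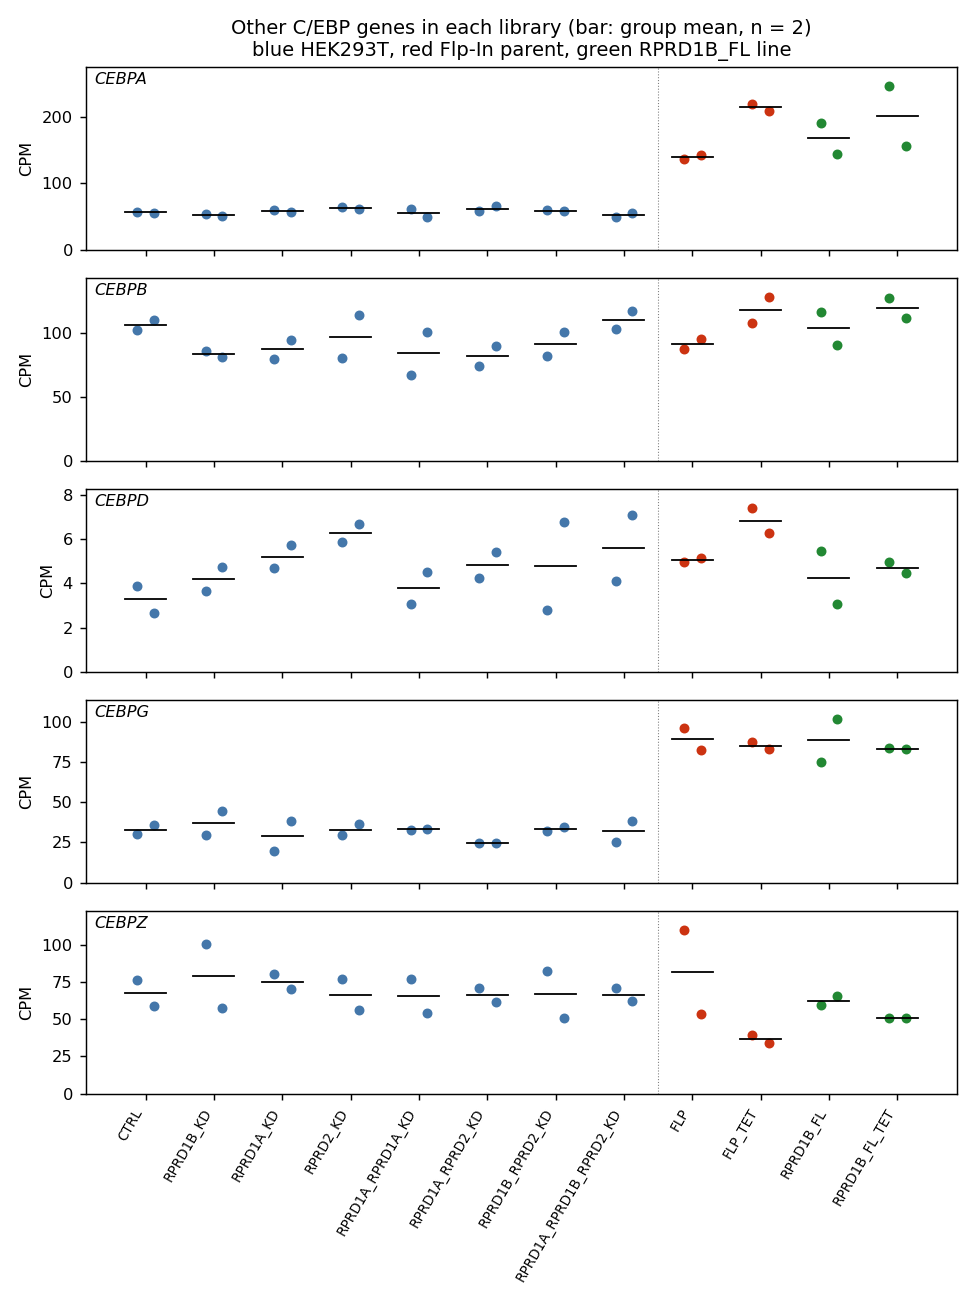
Level in CPM of the 5 other C/EBP genes in each of the 24 libraries, one panel per gene with its own axis, with points for libraries and horizontal lines for group means of 2. CEBPA and CEBPG lie higher in all 8 Flp-In libraries (red and green) than in all 16 HEK293T libraries (blue). Of all genes tested, 33.4% were called in CTRL against FLP, which is a different measure. The share of genes that separate all libraries this way is not given.

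CEBPA, the founding member and a brake on cell division in myeloid and fat cells, lies at chr19:33299934-33302564. It read 56.9 and 54.8 CPM in CTRL and 48.7 to 65.1 CPM over the 16 HEK293T libraries (median 57.6). In Flp-In cells it read 137 and 143 CPM in FLP, 219 and 209 CPM in FLP_TET, 191 and 144 CPM in RPRD1B_FL, and 246 and 156 CPM in RPRD1B_FL_TET. Every Flp-In library was above every HEK293T library, and 8 of the 11 neighbouring pairs of groups in its order overlapped. In CTRL against FLP 33.4% of all genes were called. How many genes separate the lines as CEBPA does is not given here, so this is not read as particular to it.

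CEBPG lies 70.8 kb away on the same chromosome (chr19:33373330-33382686) and encodes a short family member that has no strong activation domain and pairs with other zipper proteins. It read 30.1 and 35.6 CPM in CTRL and 19.7 to 44.6 CPM over HEK293T (median 32.5). Flp-In libraries read 96.2 and 82.3 CPM in FLP, 87.4 and 82.9 CPM in FLP_TET, 75.4 and 101.6 CPM in RPRD1B_FL, and 83.7 and 83.1 CPM in RPRD1B_FL_TET. The HEK293T and Flp-In ranges are again apart, with 10 of 11 neighbouring pairs of groups overlapping inside that split. The same limit holds as for CEBPA.

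CEBPB, a mediator of inflammatory and fat cell programmes at chr20:50190734-50192689, overlapped across the lines. It read 102 and 110.0 CPM in CTRL, 67.0 to 117 CPM over HEK293T (median 92.2), 87.4 and 94.7 CPM in FLP and 107 and 128 CPM in FLP_TET. RPRD1B_FL read 116 and 90.2 CPM and RPRD1B_FL_TET 127 and 111 CPM. All 11 neighbouring pairs of groups overlapped. The antisense gene CEBPB-AS1 overlaps it and had 0 to 3 counts per library.

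CEBPD, an acute-phase member on chromosome 8, had few reads, with 6 to 17 counts per HEK293T library and 8 to 24 in Flp-In. CTRL read 3.90 and 2.67 CPM, and the HEK293T libraries ran from 2.67 to 7.13 CPM (median 4.60). FLP read 4.96 and 5.18 CPM, FLP_TET 7.41 and 6.30, RPRD1B_FL 5.49 and 3.06, and RPRD1B_FL_TET 4.97 and 4.47. All 11 neighbouring pairs of groups in its order overlapped.

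CEBPZ, at chr2:37201612-37231713, read 76.4 and 58.8 CPM in CTRL and 50.9 to 100.5 CPM over HEK293T (median 70.3). FLP read 109.5 and 53.5 CPM, the widest pair of this gene, and FLP_TET 39.5 and 34.1 CPM. RPRD1B_FL read 59.6 and 65.3 CPM and RPRD1B_FL_TET 50.5 and 50.9 CPM. FLP_TET stood below all other groups. CEBPZOS overlaps CEBPZ on the other strand, and the strand setting of the counting is not given, so reads of the 2 cannot be told apart with certainty.

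Silencing the RPRD genes left no C/EBP call. In each of the 7 silenced groups against CTRL, 0 of the 5 tested members were called by edgeR, 0 by DESeq2, and 0 had an unadjusted p under 0.05. CEBPE was not tested, since it has no counts in this line. The background was as thin: of 11834 genes, 0.00845% were called in RPRD1A_KD, RPRD1B_KD, RPRD2_KD and RPRD1A_RPRD2_KD and 0.0169% in RPRD1A_RPRD1A_KD, RPRD1B_RPRD2_KD and RPRD1A_RPRD1B_RPRD2_KD, all lower, with 0.0% higher. Over all genes, 297 to 837 per comparison had an unadjusted p under 0.05. The 7 comparisons share the CTRL libraries and are not independent of one another.

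The ranges over the 7 silenced groups were narrow for CEBPA (log2 fold change -0.10 to 0.18) and CEBPZ (-0.05 to 0.24). CEBPG ran from -0.43 to 0.17 and CEBPB from -0.39 to 0.06. The widest was CEBPD, at 0.26 to 0.96, where CTRL held 7 and 6 counts. The member with the lowest p was CEBPD in RPRD2_KD, with 5.88 and 6.69 CPM against 3.90 and 2.67 CPM (log2 fold change 0.96, SE 0.51, 95% interval -0.04 to 1.96, unadjusted p = 0.078, adjusted p = 0.9999). CEBPD was also lowest in p in RPRD1A_KD (0.70, SE 0.52) and in RPRD1A_RPRD1B_RPRD2_KD (0.82, SE 0.52). CEBPB held that place in RPRD1A_RPRD2_KD (-0.39, SE 0.21, adjusted p = 0.717), RPRD1B_KD (-0.34, SE 0.21), RPRD1A_RPRD1A_KD (-0.32, SE 0.21) and RPRD1B_RPRD2_KD (-0.22, SE 0.21). None of these passed the threshold, and single libraries moved several of them: CEBPB in RPRD1A_RPRD1A_KD ranged from -0.65 to -0.08 and in RPRD1B_RPRD2_KD from -0.38 to -0.07 on leaving out 1 library, and CEBPD in RPRD1A_RPRD1B_RPRD2_KD from 0.35 to 1.13.

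HEK293T libraries also differed by replicate number. Reads outside genes took 45.6% to 48.5% of the table in the 8 libraries numbered 1 and 40.5% to 42.1% in the 8 numbered 2, and each group holds 1 of each. With the replicate number as a block in the fit, 0 members were still called in the 7 comparisons. CEBPB then had an unadjusted p under 0.05 in 3 of them, RPRD1B_KD (-0.33, SE 0.15, adjusted p = 0.765), RPRD1A_RPRD1A_KD (-0.34, SE 0.16, adjusted p = 0.683) and RPRD1A_RPRD2_KD (-0.40, SE 0.16, adjusted p = 0.302), by edgeR. Between 0.00845% and 0.11% of all genes were called with the block.

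**Figure D4:**
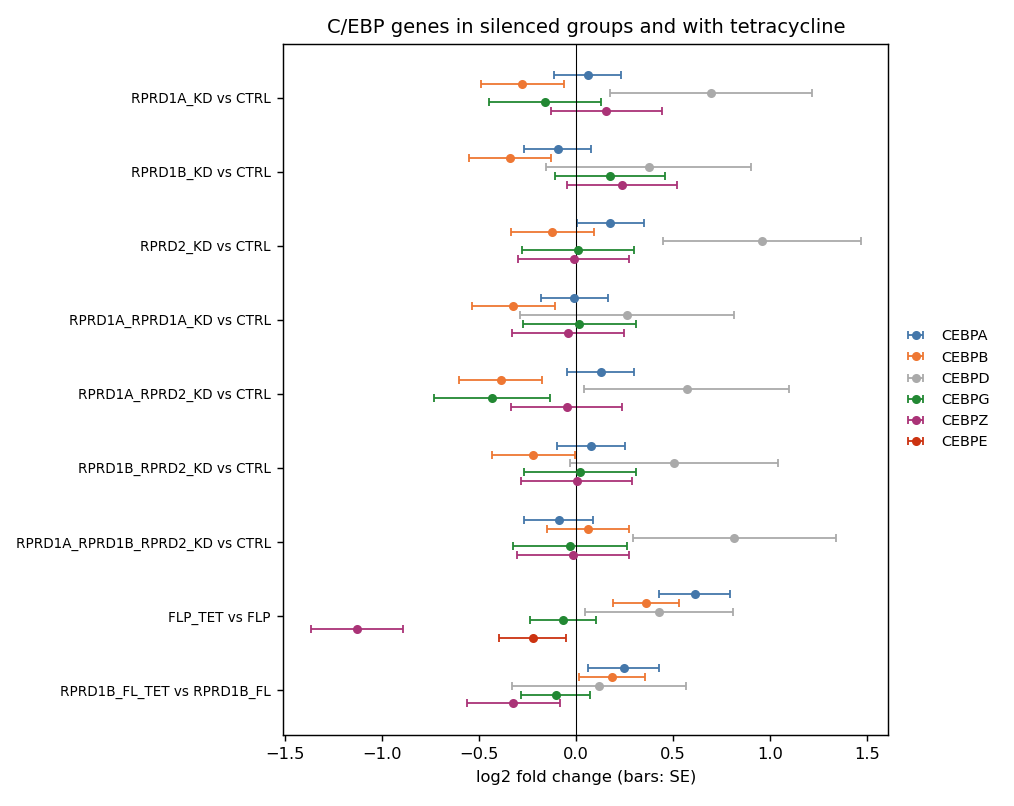
Log2 fold change of each C/EBP gene, by colour, in the 7 silenced groups against CTRL and in both lines with tetracycline against without, with bars of 1 SE. CEBPE is drawn only in FLP_TET against FLP. No member was called in a silenced group, and CEBPZ, at -1.13, is the called member in FLP_TET against FLP.

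Tetracycline in the parent line gave 1 call among the 6 members, CEBPZ, where 1.02% of the 11948 genes were called (0.226% higher, 0.795% lower). CEBPZ fell from 109.5 and 53.5 CPM to 39.5 and 34.1 CPM (log2 fold change -1.13, SE 0.24, adjusted p = 0.0463, edgeR). The 2 groups do not overlap, but how many other genes do likewise with 2 libraries a group is not given here. The call was lost on leaving out FLP replicate 1 (log2 fold change -0.55, adjusted p = 0.629), FLP_TET replicate 1 (-1.25, adjusted p = 0.336) or FLP_TET replicate 2 (-1.04, adjusted p = 0.344), and with a correction for GC content (-0.77, SE 0.21, adjusted p = 0.0659). CEBPZOS, on the opposite strand, stood at -0.61 on the log2 scale (SE 0.23, adjusted p = 0.122).

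CEBPA, chosen here after its values were seen, read 137 and 143 CPM in FLP and 219 and 209 CPM in FLP_TET. It did not pass the threshold (log2 fold change 0.61, SE 0.18, adjusted p = 0.0718), and its value after GC correction was 0.29 (adjusted p = 0.254). CEBPE stood at -0.22 (SE 0.17, 95% interval -0.57 to 0.12, adjusted p = 0.465), or -0.50 after GC correction (adjusted p = 0.099). CEBPB stood at 0.36 (adjusted p = 0.21), CEBPD at 0.43 and CEBPG at -0.07.

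GC content moved with this comparison. FLP libraries had rho of -0.54 and -0.36 with gene GC, and FLP_TET libraries 0.30 and 0.44. With the tested genes in 5 equal bins of GC content, the median log2 fold change went in steps from -0.32 in the lowest bin through -0.16, 0.00 and 0.16 to 0.34 in the highest. CEBPZ (39.6% GC) lies in the lowest bin, CEBPG (43.9%) in the next, and CEBPA (65.9%), CEBPB (66.2%), CEBPD (70.0%) and CEBPE (62.9%) in the highest. The part of GC content in the CEBPZ and CEBPA values was tested only by the correction above.

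**Figure D5:**
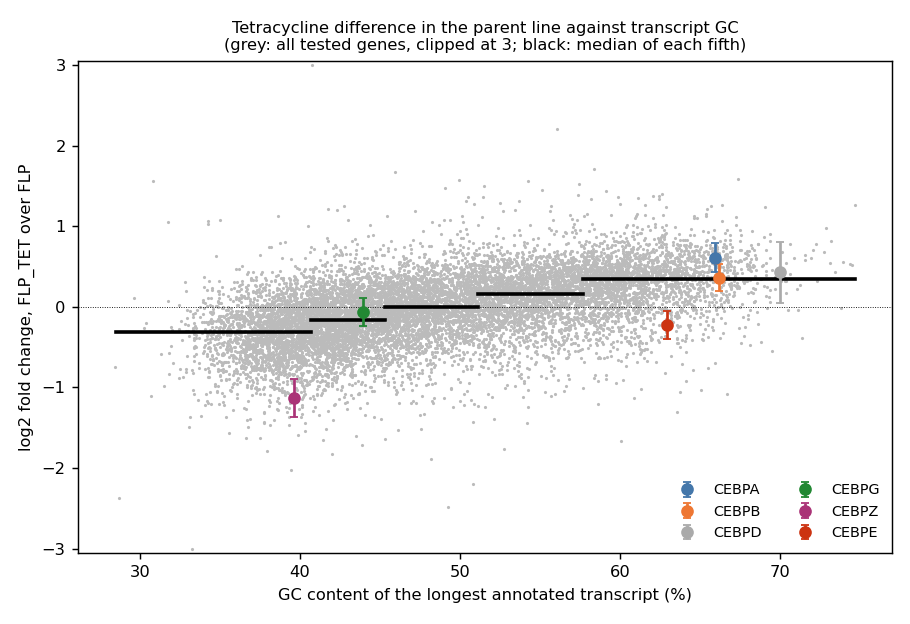
Log2 fold change in FLP_TET against FLP of each tested gene (grey points, drawn within 3 of 0) against the GC content in percent of its longest transcript, with black lines for the medians of 5 equal bins and the 6 C/EBP genes in colour with bars of 1 SE. The medians go from -0.32 to 0.34, with CEBPZ at -1.13 among low-GC genes and CEBPA at 0.61 among high-GC genes.

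In the RPRD1B_FL line tetracycline left 0 of 6 members called by edgeR, 0 by DESeq2 and 0 at an unadjusted p under 0.05, where 0.0% of genes were called. CEBPE is among the 6, but with 0 counts in all 4 libraries of this line it could not be called. CEBPA was 0.25 (SE 0.18, adjusted p = 0.816), and the members other than CEBPE ran from -0.32 to 0.25. For CEBPZ, the tetracycline effect in the RPRD1B_FL line exceeded that in the parent by 0.81 (SE 0.34, unadjusted p = 0.0267, adjusted p = 0.991), so the difference did not pass the threshold. It was 0.22 without FLP replicate 1 and 1.25 without FLP replicate 2 (adjusted p = 0.104). CEBPE, with 0 counts in the RPRD1B_FL line, could not inform the difference in tetracycline effect between the lines. CEBPZ was the 1 member at an unadjusted p under 0.05, with 0 members called by edgeR or DESeq2. Over all 11948 genes, 477 had such a p for this difference and 0.0% were called.

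Between cell lines, CEBPA and CEBPG were lower in CTRL HEK293T cells than in FLP. CEBPA read 56.9 and 54.8 CPM against 137 and 143 (log2 fold change -1.32, SE 0.20, adjusted p = 1.27e-05, edgeR). CEBPG read 30.1 and 35.6 CPM against 96.2 and 82.3 (-1.43, SE 0.25, adjusted p = 8.21e-05). CEBPE, at 0 in CTRL, was at least 73.0-fold lower as a description. Of the 12803 genes tested, 33.4% were called (16.1% higher, 17.4% lower). The 3 of 6 members called include CEBPE, which was chosen for its expression in the parent. Nothing is read from that count. CEBPB (0.22), CEBPD (-0.64) and CEBPZ (-0.26) were not called. The line, the transfection and any batch between the 2 sets of libraries cannot be told apart.
LRP3, the nearest tested gene on the other side of CEBPA, was lower too (-2.44, SE 0.45, adjusted p = 0.000159), and PEPD, beyond CEBPG, was not called (-0.52, SE 0.25, adjusted p = 0.115).

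Related genes were compared with the members by counts. Of 16 partners and relatives of the C/EBP proteins, 14 were tested. None was called in a silenced group or in any Flp-In comparison, where 0 to 2 per comparison had an unadjusted p under 0.05. Over all genes, 0.0% to 1.18% were called in these comparisons, and 297 to 2711 had such a p. In CTRL against FLP 2 were higher, NFIL3 and DBP, and 4 lower, DDIT3, ATF5, JUN and JUND, of 14 tested, where 33.4% of all genes were called, with a list median of 0.23 beside 0.02 for all genes. DDIT3, which encodes the C/EBP homologous protein of the stress response, averaged 16.1 CPM in HEK293T and 42.0 CPM in the parent (log2 fold change of CTRL against FLP -1.32, SE 0.33, adjusted p = 0.00276, edgeR). ATF4, a stress-response partner of C/EBP proteins, averaged 929 CPM in HEK293T and 809 CPM in the parent, and was not called (0.13, SE 0.25).

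Of 23 genes that act on C/EBP proteins, ID1 was called higher in the RPRD1B_FL line, without tetracycline (log2 fold change 1.71, SE 0.22, adjusted p = 0.000104) and with it (1.66, SE 0.22, adjusted p = 0.000121), by edgeR. It was the 1 call of the 23 in each comparison, where 1.18% and 1.11% of all genes were called. ID1 encodes an inhibitor of helix-loop-helix factors, and averaged 14.5 CPM in the parent, 46.8 CPM in the RPRD1B_FL line and 27.0 CPM in HEK293T. MTOR, a growth-regulating kinase, was called lower in FLP_TET against FLP (-0.85, SE 0.21, adjusted p = 0.04995). It was the 1 call of the 23 there, where 1.02% of all genes were called. Between CTRL and FLP 6 were higher and 5 lower of 23, where 33.4% of all genes were called. TRIB2, a pseudokinase that can direct C/EBP-alpha to degradation, showed -3.94 (SE 0.24, adjusted p = 3.63e-12), with 10.3 CPM in HEK293T and 155 in the parent. TRIB1 (-0.83) and TRIB3 (-0.92) were lower as well, with ID2 (1.30) higher.

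Of 25 adipocyte and liver targets of C/EBP proteins, 5 were tested in the Flp-In fit and none was called there by edgeR, with 1 to 3 per comparison at an unadjusted p under 0.05. Over all 11948 genes of that fit, 0.0% to 1.18% were called per comparison, and 477 to 2711 had such a p. The 3 fell in FLP_TET against FLP, the comparison with 2711. In CTRL against FLP, CFD was higher (1.62, SE 0.27, adjusted p = 4.65e-05), and LPL (-3.38) and SCD (-0.47) were lower among 6 tested, where 33.4% of all genes were called. SCD, a fatty acid desaturase, averaged 622 CPM in the parent and 570.3 CPM in the RPRD1B_FL line, and FASN, the fatty acid synthase, 456 and 522 CPM. Of 20 nucleolar, NF-Y and neighbouring genes set beside CEBPZ, 19 were tested and none was called in a Flp-In comparison by edgeR, with 1 to 6 per comparison at an unadjusted p under 0.05. The 6 fell in FLP_TET against FLP, where 2711 of the 11948 genes had such a p. In CTRL against FLP 5 were higher (NOC3L, WDR12, BOP1, NFYA, METTL14) and 2 lower (NOP56, FBL) of 19, near the share called over all genes. In the silenced groups no gene of any of these lists, nor of the blood cell, granule and kidney-line marker lists, was called by edgeR, with 0 to 2 per list and group at an unadjusted p under 0.05. Over all 11834 genes, 0.00845% to 0.0169% per group were called there, and 297 to 837 had such a p.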

How the data were processed

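The deposited values are whole-number read counts per gene name, 1 table per library, made by the authors from QuantSeq 3′ REV libraries, which read polyadenylated RNA from its 3′ end. FastQC, STAR, HTSeq, DESeq2 and GRCh38 are named, without role or version, per the submitters' processing notes. The annotation, strand setting and filters are not given in the sources used here. The 5 rows outside genes, 30.4% to 48.5% of a table's total, were left out. Because counts come from transcript ends and not per length, levels were not compared between genes.

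Groups came from the labels. Genes were kept by filterByExpr (minimum count 10, minimum total 15) and scaled by TMM. Quasi-likelihood tests used edgeR 4.0.16 (R 4.3.3, limma 3.58.1), with 1 fit per cell line and 1 fit of all 24 libraries for CTRL against FLP. A gene was called at a Benjamini-Hochberg adjusted p under 0.05 over all genes tested. SE was taken as |log2 fold change| / sqrt(F), and intervals are 95% by normal approximation. Alternatives used DESeq2 1.42.0, other scaling and filters, a GC correction and single libraries left out. The fits were tested on simulated data. GENCODE 29 gave positions and GC content for 54848 names.

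The members and lists were chosen with earlier results of these data known. Named were all members, called members or the one with the lowest p, CEBPE wherever tested, called and most abundant list genes, genes most like CEBPE, and nearest neighbours. Same-numbered samples deviated together in 26 of 28 HEK293T pairs (mean r 0.334) and 1 of 6 Flp-In pairs (mean r -0.018). As the labels give no shared batch and not every pair correlated, the reported fits have no replicate block, and the blocked fit was run beside them.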

Additional observations from a re-analysis of the deposited data

How the results depend on the processing

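The tetracycline comparison of the parent line (1 member called) was the one most open to processing. The count was 2 with no filter on low counts and 2 with a fit of only the groups compared, where CEBPA joined CEBPZ (0.63, adjusted p = 0.0133, and 0.61, adjusted p = 0.00722, edgeR). It was 0 with a mean count of 50 or more, 0 with the replicate block, 0 with GC correction and 0 with GC correction and replicate block. It ranged from 0 to 1 on leaving out single libraries. For CEBPZ the block value was -1.11 (adjusted p = 0.0557). In RPRD1B_FL against FLP the count ranged from 1 to 2 on leaving out single libraries. CEBPA in RPRD1B_FL_TET against RPRD1B_FL reversed to -0.11 without RPRD1B_FL_TET replicate 1, within a range of -0.11 to 0.52. Spearman's rho in place of Pearson's r left 1 shared gene among the 5 most like CEBPE. The causes were not tested. Over the counts of called members and the CEBPE levels, 165 alternative values kept the reported count or moved a level by less than 1 SD, and 10, given above, did not. Many of the 165 could hardly differ. A CEBPE level of 0 does not move with scaling, and few genes of any kind were called in the silenced groups. The tally is therefore no measure of stability. The 7 silenced groups and CTRL against FLP had none that differed. Omission of the second RPRD1A_RPRD2_KD library was added after the data were seen.

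Limits: groups hold 2 libraries, CEBPD has few reads, counts carry no molecular identifiers, and without a spike-in the scaling removes any shift common to all RNA.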
